A study of Mus musculus with 8 samples.

Results

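Meningeal CD4+ T cells whose T-cell receptor (TCR) was found in at least 2 cells of a replicate were compared with cells whose receptor was found once. A member was a barcode with exactly 1 productive TCR beta (TRB) chain and 1 or 2 alpha (TRA) chains, none of them TRAV11 joined to TRAJ18, the chain of invariant natural killer T cells. It also carried the replicate's hashtag antibody at 10 or more counts and at least 5 times the next, 500 or more detected genes, under 10% mitochondrial UMIs (unique molecular identifiers, 1 per captured RNA molecule) and no UMI of Foxp3, the transcription factor of regulatory T cells. These filters kept 2050 of the 61745 barcodes in the gene tables of the whole series. A clonotype was the set of cells with the same nucleotide sequence of both complementarity-determining region 3 (CDR3) loops. By this definition 322 cells were expanded, 198 in replicate 1 and 124 in replicate 2, and 1728 were single, 755 and 973.

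Both replicates held CD45+ CD3+ CD4+ cells sorted from the meninges of perfused mice, with no treatment named in the labels. Replicate 1 came from Foxp3-GFP mice, which report Foxp3 by fluorescence, and replicate 2 from B6.WT mice, so genotype and library cannot be told apart between the replicates. The number of mice behind each hashtag and their ages are not given in the sources used here. Other hashtags of the same libraries were not analysed here.

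A T cell receptor pairs an alpha with a beta chain. Each chain is made once, in a developing thymocyte, by joining V, D and J gene segments (V and J alone in the alpha chain), with bases trimmed and added at the joins. The CDR3 spans the join and touches the antigen peptide, and a join with added bases is seldom made again, so cells that share both CDR3 sequences are usually progeny of a common ancestor. Naive T cells recirculate through lymph nodes by CCR7 and the sphingosine receptor S1PR1, while effector and tissue-resident memory cells lose these and gain chemokines, granule proteins and tissue receptors. The meninges, the membranes around the brain, hold such resident and patrolling T cells.

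The CDR3 sequences below define 6 of the 11 clonotypes of 5 or more cells, named by replicate and size rank, and the single TRA and TRB pair found in both replicates. Bases in capitals matched neither the V nor the J segment of the reference and so mark the join. Beta D segments were not matched, so capitals in a TRB chain can include D bases as well as added ones. No V match was found for the TRB chain of clonotype 1-2, which is in lower case throughout and has no marked join.
Clonotype 1-1 TRA, TRAV6N-7 with TRAJ39: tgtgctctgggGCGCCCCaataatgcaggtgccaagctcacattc
Clonotype 1-1 TRB, TRBV20 with TRBJ2-1: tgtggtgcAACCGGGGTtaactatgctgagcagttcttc
Clonotype 1-2 TRA, TRAV7D-4 with TRAJ37: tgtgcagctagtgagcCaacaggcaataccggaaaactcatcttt
Clonotype 1-2 TRB, TRBV10 with TRBJ2-7: tgtgccagcagccactatgaacagtacttc
Clonotype 1-5 TRA, TRAV4-4-DV10 with TRAJ52: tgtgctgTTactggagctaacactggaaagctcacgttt
Clonotype 1-5 TRB, TRBV16 with TRBJ2-4: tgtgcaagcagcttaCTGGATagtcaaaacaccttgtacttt
Clonotype 2-1 TRA, TRAV6-7-DV9 with TRAJ45: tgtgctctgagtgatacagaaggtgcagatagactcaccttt
Clonotype 2-1 TRB, TRBV23 with TRBJ2-1: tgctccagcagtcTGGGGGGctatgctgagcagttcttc
Clonotype 2-2 TRA, TRAV7-4 with TRAJ27: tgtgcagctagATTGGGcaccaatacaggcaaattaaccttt
Clonotype 2-2 TRB, TRBV13-3 with TRBJ2-5: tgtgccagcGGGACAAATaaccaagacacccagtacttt
Clonotype 2-3 TRA, TRAV13N-1 with TRAJ22: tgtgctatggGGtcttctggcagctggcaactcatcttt
Clonotype 2-3 TRB, TRBV14 with TRBJ2-5: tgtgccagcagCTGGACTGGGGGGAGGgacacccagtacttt
Shared pair TRA, TRAV7D-2 with TRAJ9: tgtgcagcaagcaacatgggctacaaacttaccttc
Shared pair TRB, TRBV12-1 with TRBJ1-4: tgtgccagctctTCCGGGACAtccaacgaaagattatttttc

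Every alpha segment of the 11 clonotypes lay on the plus strand of mouse chromosome 14 and every beta segment on the plus strand of chromosome 6 (GENCODE annotation, build mm10). For clonotype 1-1, TRAV6N-7 is at chr14:53318798-53319284, TRAJ39 at chr14:54179962-54180024, TRBV20 at chr6:41188273-41188977 and TRBJ2-1 at chr6:41542754-41542803. For clonotype 1-5, TRAV4-4-DV10 is at chr14:53683647-53684177, TRAJ52 at chr14:54165316-54165381, TRBV16 at chr6:41151740-41152230 and TRBJ2-4 at chr6:41543362-41543410. The join of clonotype 2-3 TRB held 16 bases outside the V and J segments, any D bases included, and that of 1-5 TRB held 6. The TRA chain of clonotype 2-1 held 0. The pair found in both replicates belonged to 1 single cell in each, with different cell barcodes, and its TRA chain had no base outside its segments. No expanded clonotype was found in both replicates.

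Replicate 1 held 822 clonotypes, 67 of them expanded, and replicate 2 held 1018, 45 of them expanded. The share of cells in clonotypes of 2 or more was 20.8% in replicate 1 (exact binomial 95% interval 18.2% to 23.5%, counting error only) and 11.3% in replicate 2 (9.49% to 13.3%). Scaled to the same 953 cells, the share of replicate 2 was 10.6%. The intervals of the replicates did not overlap, but they take cells as independent, while cells of a clonotype are expanded together. They are thus too narrow, and with 1 library each the difference has no replicate check. Clonotypes of exactly 2 cells numbered 48 and 30, and held 48.5% and 48.4% of the expanded cells. Clonotypes of 5 or more cells numbered 8 and 3, and held 34.3% and 16.9%. The largest had 13 cells in replicate 1 and 9 in replicate 2.

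**Figure D1:**
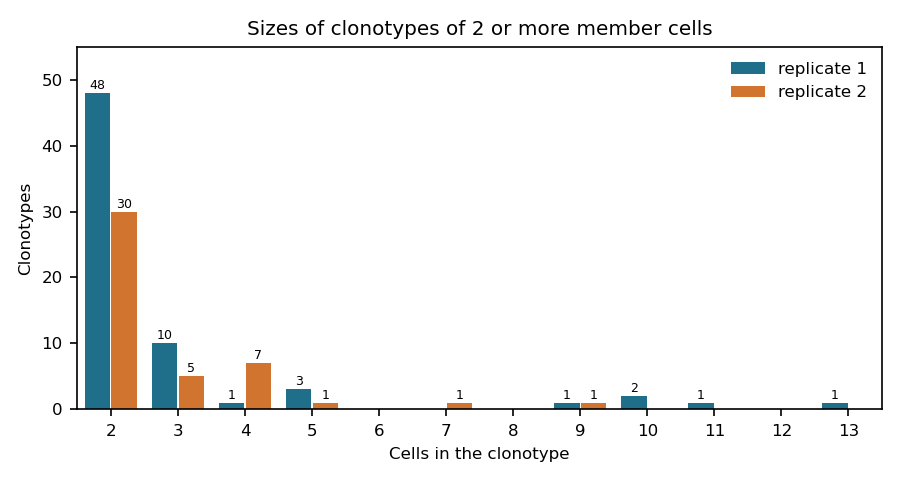
Number of clonotypes (vertical axis) by cells in the clonotype (horizontal axis, 2 to 13) in replicate 1 (blue) and replicate 2 (orange), with the number above each bar and the clonotypes of 1 cell left out. Pairs of cells were the most frequent class in both replicates (48 and 30), and replicate 1 held 5 clonotypes of 9 or more cells against 1 in replicate 2.

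Expanded and single clonotypes had CDR3 loops of similar length. The beta loop averaged 13.7 ± 1.45 residues over the 67 expanded clonotypes of replicate 1 and 13.9 ± 1.39 over the 755 single ones (SD), and 13.6 ± 1.37 against 13.9 ± 1.39 in replicate 2. The alpha loop averaged 13.7 against 13.6 residues and 13.6 against 13.5. The median number of beta bases outside the V and J segments, any D bases included, was 9 in expanded and 10 in single clonotypes of both replicates. No beta V segment was used by most expanded clonotypes. The most used V segment was TRBV19 in replicate 1 (9 of 67 expanded clonotypes, 13.4%, against 8.74% of single ones) and TRBV3 in replicate 2 (7 of 45, 15.6%, against 10.6%).

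A second alpha chain was rarer in expanded cells, at 4.04% against 11.4% of single cells in replicate 1 and 2.42% against 8.94% in replicate 2. The rule itself bears on this value, since a cell is filed under the alpha chain with most UMIs. Of the beta sequences found in 2 or more clonotypes, 7 of 11 in replicate 1 and 3 of 12 in replicate 2 were joined by a second alpha chain. A cell with a Foxp3 UMI carried the same receptor as 2 of the 67 expanded clonotypes of replicate 1 and as 3 of the 45 of replicate 2. Among single clonotypes this held for 5 of 755 and 6 of 973. The difference was not tested.

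Depth was alike in both kinds of cell. Median UMIs per cell were 2897 in expanded and 3055 in single cells of replicate 1, and 1699 and 1733 in replicate 2, and the hashtag margin was under 20 in 4.55% and 4.64% of the cells of replicate 1 and in 23.4% and 22.4% of those of replicate 2. The summed counts of expanded and single cells came to 634437 and 2644218 UMIs in replicate 1 and to 241686 and 1873778 in replicate 2. The CD4 T cell markers fixed for the check (Cd3e, Cd3d, Cd3g, Cd4, Cd2, Cd5 and Cd28) summed to 5709 and 4985 CPM (UMIs per 1000000 UMIs of the sum) in expanded and single cells of replicate 1, and to 5429 and 5278 CPM in replicate 2. Cd8a had 0 UMIs in the expanded cells of both replicates, which allows up to 4.73 and 12.4 CPM, against 33 and 1 UMIs in single cells. Cd8b1 had 8 and 1 UMIs in expanded and 80 and 16 in single cells. The B cell marker list summed to 129 against 237 CPM in replicate 1 and to 244 against 332 CPM in replicate 2, with Ighm, the heavy chain of IgM, called lower in expanded cells by the test described next (log2 fold change -0.63, adjusted p = 0.0074 by edgeR). In replicate 2 the neutrophil and mast cell markers summed to 16.6 against 124 CPM and the erythroid markers to 348 against 148 CPM. The part of these cells' RNA in the results was not tested. The gene tables of the replicates shared 554 cell barcodes, of which 1 was a member in both, with different clonotypes. No pair of cells within a clonotype had barcodes 1 base apart or less, over 373 pairs in replicate 1 and 154 in replicate 2.

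Gene counts were summed over expanded and over single cells of each replicate, and the 4 sums were tested with edgeR's quasi-likelihood test with the replicate as a block. A gene was called at a Benjamini-Hochberg adjusted p of 0.05. Of 8763 genes tested, 133 were called (1.52%), with 77 higher in expanded cells (0.879%) and 56 lower (0.639%). The same direction in both replicates held for 95 of them (1.08%), 53 higher (0.605%) and 42 lower (0.479%), and 75 of these (0.856%) were also called when the cell with most UMIs of the gene was taken out of each sum. The calls rest on the block: without it edgeR called 0 genes (164 at an unadjusted p of 0.05), and DESeq2 with the block called 0 (77 at an unadjusted p of 0.05). The fit has 1 residual degree of freedom and took its spread from all genes together, and 2 sums against 2 cannot reach 0.05 in an exact permutation test of a single gene. The labels do not say that the replicates were separate experiments beyond their genotype. The p-values and SEs rest on a spread pooled over all genes, not on how well the replicates agree for the gene itself. A gene whose replicates differ widely can thus still have a small SE and a small p-value.

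**Figure D2:**
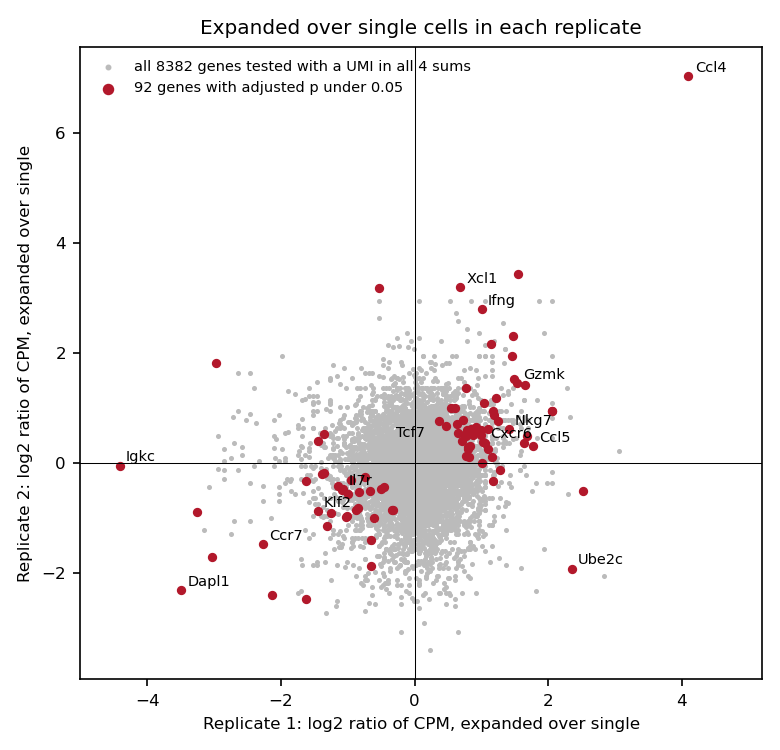
Log2 ratio of CPM in expanded over single cells in replicate 1 (horizontal) and replicate 2 (vertical) for the 8382 tested genes with a UMI in all 4 sums (grey) and the 92 of them past an adjusted p of 0.05 (red). Ccl4, Xcl1 and Ifng lie in the upper right, Ccr7 and Dapl1 in the lower left, and Ube2c is high in replicate 1 and low in replicate 2.

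Of 20 genes of naive, quiescent and recirculating T cells 19 were tested, and in expanded cells 9 were called lower and 0 higher, with a median log2 fold change of -0.77 against 0.00 over all genes, and 1 of the 19 was above 0. Ccr7, the receptor that guides T cells into lymph nodes, was at 20.5 CPM (13 UMIs) in expanded and 98.7 CPM in single cells of replicate 1, and at 41.4 CPM (10 UMIs) and 115 CPM in replicate 2. Both expanded sums lay below both single sums, and the log2 fold change was -2.0 ± 0.26 (SE, adjusted p = 5.6e-12).

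Klf2, the transcription factor that switches on S1pr1, was at 99.3 and 182 CPM in expanded cells and 271 and 335 CPM in single cells (log2 fold change -1.24 ± 0.16, adjusted p = 1.14e-11). Its target S1pr1, the receptor for exit from tissue, was at 37.8 against 99.1 CPM in replicate 1 and at 137 against 156 CPM in replicate 2 (log2 fold change -0.82, adjusted p = 0.00695). The groups overlapped for S1pr1, since the expanded cells of replicate 2 were above the single cells of replicate 1. Il7r, the survival receptor for interleukin 7, was at 225 and 327 CPM against 476 and 451 CPM (log2 fold change -0.86, adjusted p = 5.72e-07). Lef1, a transcription factor of naive T cells, was at 50.4 and 91.0 CPM against 101 and 134 CPM (log2 fold change -0.85, adjusted p = 0.00512). Tcf7, the partner of Lef1, was not called and moved in opposite directions, from 220 CPM in single to 170 in expanded cells of replicate 1 and from 262 to 343 CPM in replicate 2.

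Dapl1, a gene of naive T cells, had 3 UMIs in expanded cells of replicate 1, all in 1 cell, and 2 in replicate 2, against 141 and 77 UMIs in single cells (log2 fold change -3.15 ± 0.46, adjusted p = 5.44e-09). Its log2 ratio was -3.50 (counting interval -5.79 to -1.92) and -2.31 (-5.38 to -0.41). Ly6c1, a surface protein of naive and memory cells, had 9 UMIs in expanded cells of replicate 1 and 0 in replicate 2, where it was at least 3.44-fold lower than the 42.7 CPM of single cells (taking 3 counts as the floor of the sum). Its near-identical copy Ly6c2 was also called lower (log2 fold change -0.59, adjusted p = 0.00845), and reads of the pair may be split uncertainly. Ramp1, a subunit of the receptor for the neuropeptide CGRP, was at 48.9 and 45.5 CPM against 74.1 and 91.3 CPM (log2 fold change -0.77, adjusted p = 0.0495).

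Of 12 chemokines and tissue receptors 10 were tested, and in expanded cells 5 were called higher (Ccl1, Ccl4, Ccl5, Cxcr6 and Xcl1) and 0 lower, with a median log2 fold change of 0.77. The call of Ccl1 rests on 1 cell: 323 of its 324 UMIs in expanded cells of replicate 2 were in that cell, against 318 UMIs (170 CPM) over 12 single cells with 138 in the highest, and replicate 1 had 0 UMIs in expanded and 2 in single cells. Ccl5, a chemokine of effector and memory T cells, was at 5118 CPM in expanded and 1503 CPM in single cells of replicate 1, but at 1208 and 971 CPM in replicate 2. Its log2 ratio was 1.77 in replicate 1 and 0.31 in replicate 2, and the groups overlapped across replicates (fitted log2 fold change 1.08 ± 0.15, adjusted p = 6.76e-11). A UMI of Ccl5 was found in 162 of 198 and 70 of 124 expanded cells. Cxcr6, the receptor for CXCL16 that marks tissue-resident T cells, was at 880 against 430 CPM and at 550 against 422 CPM (log2 fold change 0.72 ± 0.13, adjusted p = 7.81e-06), with both expanded sums above both single sums.

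A few cells held many of the UMIs of Ccl4, Xcl1 and Ccl1. Ccl4, a chemokine made soon after receptor triggering, had 148 UMIs in expanded cells of replicate 1, 98 of them in 1 cell of clonotype 1-2, and 85 in replicate 2, 83 of them in 1 cell. Single cells held 36 and 5 UMIs (log2 fold change 4.88 ± 0.21, adjusted p = 2.76e-115, and 3.15, adjusted p = 5.68e-08, without the highest cell of each sum). The fit without these cells still holds 27 UMIs of 1 cell of clonotype 1-5 in replicate 1. In replicate 2 it has few UMIs left, as Ccl4 was found in 3 expanded and 4 single cells. The Ccl4-rich cell of replicate 2 belonged to a clonotype of 2 and held 2952 UMIs in all. The same cell carried the 323 UMIs of Ccl1, a ligand of CCR8, 143 of the 183 of Xcl1, a chemokine for cross-presenting dendritic cells, 30 of the 30 of Ccl3 and 100 of the 147 of Ifng, which encodes interferon gamma. It had 12 UMIs of Tnf and 9 of Il2, and 0 of Ccl5. In replicate 1 Xcl1 was at 191 against 119 CPM with at most 7 UMIs in an expanded cell, and its log2 fold change without the highest cell of each sum was 0.87 (adjusted p = 3.94e-05).

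Of 16 granule and natural killer receptor genes 11 were tested, and in expanded cells 4 were called higher and 0 lower, with 7 of 11 above 0 and a median log2 fold change of 0.50. Gzmk, a granzyme of memory T cells, was at 363 against 125 CPM in replicate 1 (230 UMIs over 88 of 198 expanded cells) and at 157 against 57.1 CPM in replicate 2 (38 UMIs over 17 of 124), a log2 fold change of 1.47 ± 0.16 (adjusted p = 3e-17). The log2 ratio was close in both replicates, 1.53 and 1.46. Nkg7, a protein of cytotoxic granule membranes, was at 1600 against 602 CPM and at 993 against 646 CPM (log2 fold change 1.02 ± 0.13, adjusted p = 4.7e-12), with both expanded sums above both single sums. Klrg1, an inhibitory receptor of effector T cells, was at 52.0 against 23.4 CPM and at 78.6 against 17.6 CPM (log2 fold change 1.47, adjusted p = 0.00017). Ctsw, cathepsin W of cytotoxic lymphocytes, was at 427 against 235 CPM and at 414 against 276 CPM (log2 fold change 0.71, adjusted p = 3.18e-05). Gzmb, the granzyme of fully armed killer cells, was not called (20 and 4 UMIs in expanded cells, log2 fold change -0.32 ± 0.35).

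Among 18 tested Th1 and effector cytokine genes 4 were called higher and 1 lower, with a median log2 fold change of 0.47 and 16 of 18 above 0. Ifng was at 106 against 52.6 CPM in replicate 1 and at 608 against 87.5 CPM in replicate 2, and its log2 fold change of 1.99 was 1.16 without the highest cell of each sum (adjusted p = 2.55e-07). Bhlhe40, a transcription factor that supports cytokine output, was at 94.6 against 65.0 CPM and at 199 against 98.7 CPM (log2 fold change 0.72, adjusted p = 0.00762). Id2, a regulator of effector differentiation, was called at 0.48 (adjusted p = 0.0213 by edgeR). Its difference was mostly in replicate 1, at 1433 against 817 CPM, with replicate 2 at 612 against 566 CPM. Eomes, a T-box factor, was called at 1.78 with 17 and 2 UMIs in expanded cells (adjusted p = 0.0372 by edgeR). The other T-box factor and master regulator of Th1 cells, Tbx21, was at 104 against 75.3 CPM and at 91.0 against 80.6 CPM and was not called (log2 fold change 0.33 ± 0.19). Its target Cxcr3 was at 520 against 385 CPM and at 422 against 377 CPM, also not called (0.29 ± 0.13).

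Of 12 tissue residency genes tested 8 were above 0 and 3 were called higher, Cxcr6, Xcl1 and Rgs1, a brake on chemokine receptor signals that was at 394 against 224 CPM and at 778 against 517 CPM (log2 fold change 0.67, adjusted p = 5.81e-05). Of 20 memory and cytoskeleton genes 4 were called higher, with a median of 0.24. Lgals1, which encodes galectin-1, was at 1307 against 941 CPM and at 1485 against 931 CPM (log2 fold change 0.53, adjusted p = 0.00553). S100a4, S100a11 and Anxa2, calcium-binding partners in the cytoskeleton, had log2 fold changes of 0.64, 0.49 and 0.57.

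Receptors of exhaustion and help were mixed. Of 19 coinhibitory and costimulatory receptors tested 1 was called higher and 2 lower, with a median of -0.08. Tigit, an inhibitory receptor, was at 208 against 124 CPM and at 194 against 136 CPM (log2 fold change 0.62, adjusted p = 0.0103). Pdcd1, which encodes PD-1, was at 117 against 102 CPM and at 170 against 121 CPM and was not called (0.27 ± 0.18), nor was Lag3 (0.45 ± 0.31). Izumo1r, the folate receptor 4 of follicular and regulatory T cells, was at 186 against 231 CPM and at 153 against 276 CPM (log2 fold change -0.55, adjusted p = 0.0276). Slamf6, a receptor of stem-like T cells, was called lower (-0.65, adjusted p = 0.0391) although it was higher in replicate 2, at 174 against 132 CPM.

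Genes switched on by recent receptor signals gave 1 call among 22 tested, with a median of 0.03. That gene was Dusp2, a phosphatase of activated lymphocytes, at 426 against 273 CPM and at 641 against 392 CPM (log2 fold change 0.64, adjusted p = 0.000206). Nr4a1 and Cd69 were not called (-0.20 ± 0.23 and -0.13 ± 0.15). None of 18 genes of the TCR complex and its first kinases and none of 22 interferon-stimulated genes was called, with medians of 0.10 and 0.18. Of 20 cell cycle genes tested 2 were called higher, Stmn1 and Hmgb2, and in both cases the difference was in replicate 1 (109 against 44.6 CPM and 816 against 477 CPM) with replicate 2 at 49.7 against 53.9 CPM and 430 against 391 CPM. Of 9 Treg genes tested 0 were above 0, with a median of -0.35 and 1 called, Izumo1r. Of 10 follicular helper genes tested 1 was called higher and 2 lower, with a median of 0.10. The higher one was Il21, a follicular helper cytokine, at 2.26 on 7 UMIs in the expanded cells of each replicate (adjusted p = 0.0186 by edgeR). In replicate 1, 4 of the 7 were in the Ccl4-rich cell of clonotype 1-2.

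The named genes outside these lists and those of other tissues held 13 higher and 3 lower genes. Cd7, a surface co-receptor of T and natural killer cells, was at 191 against 60.9 CPM and at 124 against 46.4 CPM (log2 fold change 1.53 ± 0.18, adjusted p = 4.61e-15). It was found in 40 of 198 and 13 of 124 expanded cells. Rbpj, the DNA-binding partner of Notch, was at 83.5 against 37.1 CPM and at 49.7 against 25.6 CPM (log2 fold change 1.07, adjusted p = 0.00309). Dusp6, a phosphatase of ERK, was at 69.4 against 33.7 CPM and at 99.3 against 46.4 CPM (1.02, adjusted p = 0.00164). Mxd4, an antagonist of MYC, was at 235 against 109 CPM and at 170 against 110 CPM (0.89, adjusted p = 1.11e-05). The kinase gene Stk32c, the orphan receptor gene Gpr171, the small GTPase gene Gem, Gm43305, Sytl3, Mindy2, Ttc39c, the sialyltransferase gene St3gal6 and Ifitm10 had log2 fold changes between 0.79 and 1.44. Without the highest cell of each sum Gm43305 was not called (0.96, adjusted p = 0.276 by edgeR). In replicate 2 alone the log2 ratio was 0.50 for Gem, 0.77 for Gpr171, 0.95 for Rbpj, 0.51 for Ttc39c, 0.59 for St3gal6 and 0.10 for Ifitm10, each with a counting interval that held 0. Gpr183, an oxysterol receptor that positions lymphocytes, was at 29.9 against 74.1 CPM and at 45.5 against 101 CPM (-1.29 ± 0.25, adjusted p = 6.67e-05), and Pdlim1 and Gpm6b were at -1.20 and -1.18. In replicate 2 the ratios of Pdlim1 and Gpm6b were -0.91 and -0.32, also with intervals that held 0.

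**Figure D3:**
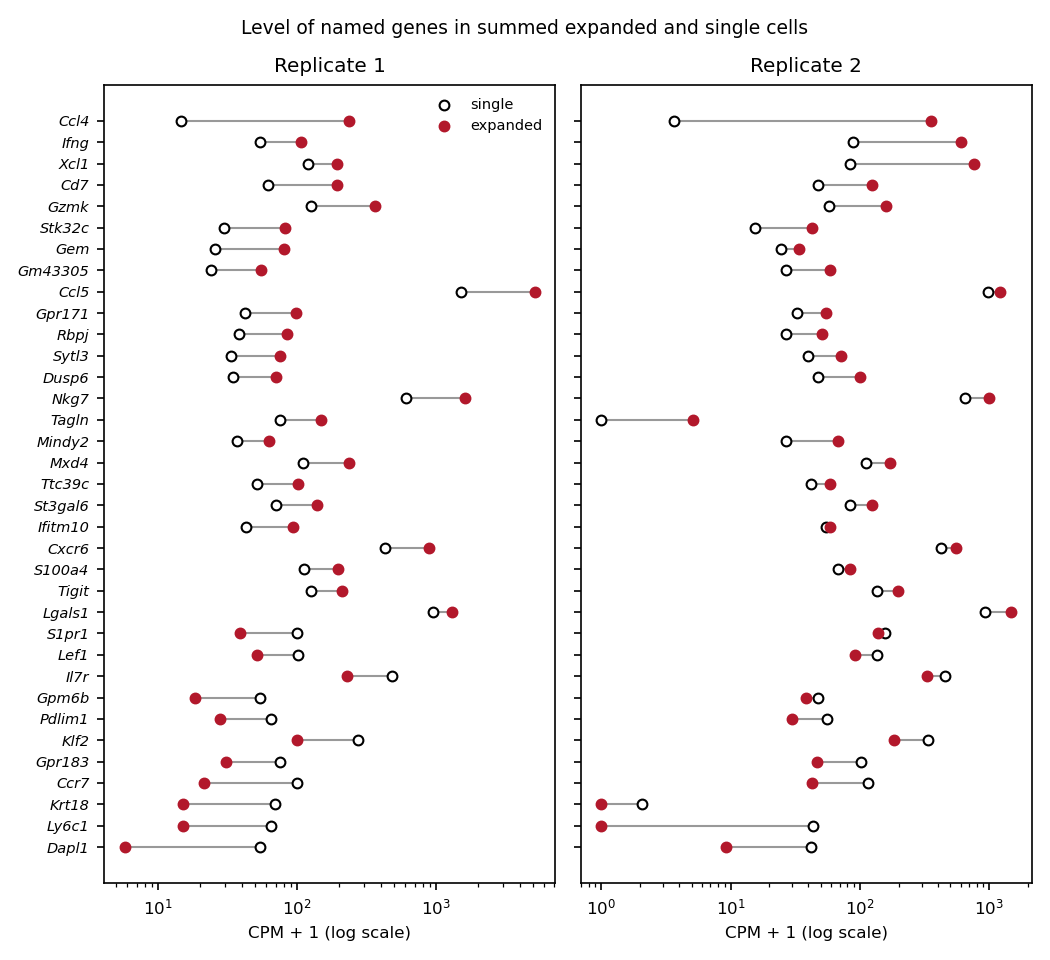
CPM plus 1 (log scale) of 35 named or called panel genes in the summed single cells (open) and expanded cells (red) of replicate 1 (left) and replicate 2 (right), with the immunoglobulin and J chain genes left out. Genes are ordered by fitted log2 fold change from Ccl4 to Dapl1, Ccl5 differs far more in replicate 1 (5118 against 1503 CPM) than in replicate 2 (1208 against 971), and Tagln and Krt18 are near 0 in replicate 2.

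Some calls were genes that other tissues make, and nearly all of their UMIs were in replicate 1. Igkv1-117, Jchain and Igkc, genes of antibody-secreting cells, had 5775, 2933 and 1598 UMIs in single cells of replicate 1 against 19, 24 and 18 in expanded cells, and at most 13 UMIs in either group of replicate 2. A single cell held 5733 of the 5775 Igkv1-117 UMIs. Mptx1, a gene of gut epithelium, had 1699 UMIs in single cells, 1407 of them in 1 cell. Of the called genes, 34 had under 10 UMIs in replicate 2. The 21 epithelial, plasma cell and fibroblast genes gathered after the values were seen reached 10 or more UMIs in 6 of 198 expanded cells (3.03%) and 23 of 755 single cells (3.05%) of replicate 1, and in 0 cells of replicate 2. The fibroblast and endothelial marker list summed to 821 against 532 CPM in replicate 1 and to 53.8 against 42.2 CPM in replicate 2, with Col1a1, Col1a2 and Col3a1 at 0 UMIs in both groups of replicate 2. Krt18, a keratin gene of epithelium, had 9 UMIs in expanded and 181 in single cells of replicate 1, and 0 and 2 in replicate 2. Tagln, a gene of smooth muscle, had 94 UMIs in 47 expanded cells of replicate 1 and 1 UMI in replicate 2. The part of these RNAs in the other results was not tested beyond the alternative that leaves those cells out, which called 92 genes (1.07%), 83 of them among the 133.

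The comparison was repeated within a subset of the members. Among cells with a UMI of at least 2 of the 6 Th1 genes Cxcr3, Tbx21, Ifng, Ccl5, Nkg7 and Cxcr6, 28 of 7619 genes were called (0.368%), 17 higher (0.223%) and 11 lower (0.144%). In these cells Gzmk was at 1.13 (adjusted p = 5.3e-08), Klrg1 at 1.39 (adjusted p = 0.00627), Klf2 at -0.88 (adjusted p = 0.00373), Il7r at -0.90 (adjusted p = 3.08e-05) and Gpr183 at -1.14 (adjusted p = 0.0292). Whether the fold changes within these cells differ from those over all members was not tested.

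Levels by clonotype size are a description with no test, as cells of a clonotype share their origin. In replicate 1 Ccl5 was at 1503 CPM in single cells, 4248 in clonotypes of 2, 4301 in clonotypes of 3 to 4 and 6692 in clonotypes of 5 or more. The last step rests on clonotype 1-5: without its 9 cells the largest class was at 4201 CPM, below both smaller expanded classes. In replicate 2 the same classes were at 971, 1149, 1415 and 886 CPM, so the largest class was the lowest there, on 21 cells of 3 clonotypes. Nkg7 had the same shape, with 602, 1238, 1539 and 2120 CPM in replicate 1 (1630 in the largest class without clonotype 1-5) and 646, 969, 1207 and 519 CPM in replicate 2. Cxcr6 was higher in each larger class of both replicates, from 430 to 1047 CPM and from 422 to 672 CPM. The last step of replicate 2 rests on clonotype 2-2, which held 15 of the 22 Cxcr6 UMIs of that class. Clonotypes 2-1 and 2-3 were at 480 and 115 CPM, on 6 and 1 UMIs. Gzmk went from 125 to 227, 364 and 546 CPM in replicate 1 (356 in the largest class without clonotype 1-5, below the 364 of the class before it) and from 57.1 to 171, 104 and 244 CPM in replicate 2. Klf2 was at 271, 122, 37.3 and 98.4 CPM in replicate 1 and at 335, 310, 23.2 and 122 CPM in replicate 2. For Il7r the classes were at 476, 267, 205 and 179 CPM in replicate 1. In replicate 2 they were at 451, 464, 116 and 367 CPM, so clonotypes of 2 were not below single cells there.

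**Figure D4:**
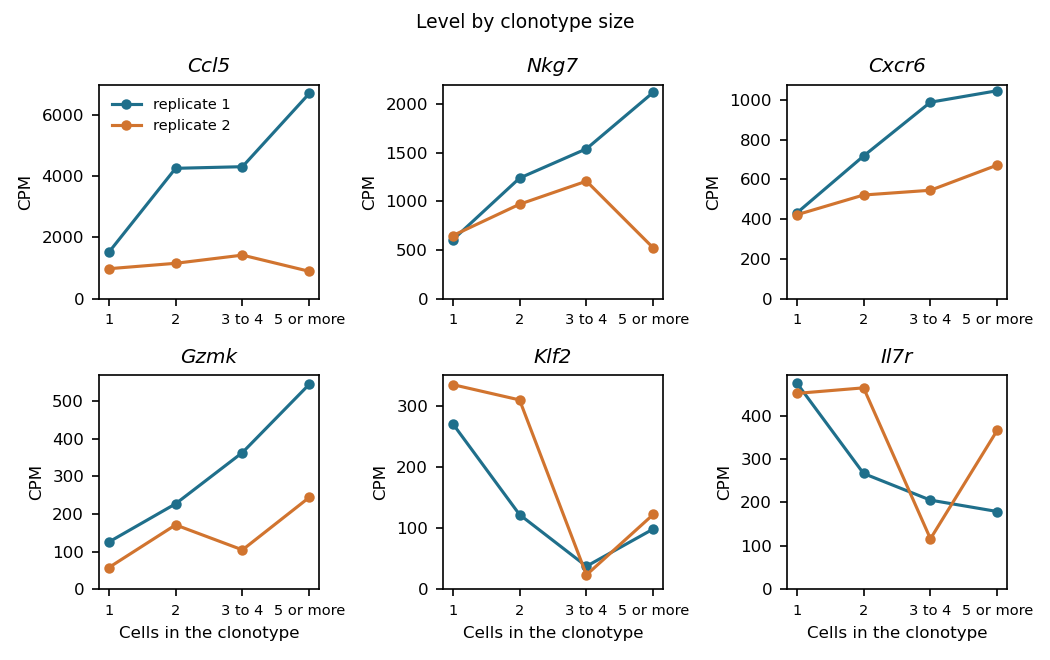
CPM of 6 genes (vertical axes, from 0) in cells of clonotypes of 1, 2, 3 to 4 and 5 or more cells, summed within replicate 1 (blue) and replicate 2 (orange), with 755, 96, 34 and 68 cells and 973, 60, 43 and 21 cells. Cxcr6 is higher in each larger class of both replicates, while Ccl5 and Nkg7 are lower in the largest class of replicate 2 than in its single cells. In that class 15 of the 22 Cxcr6 UMIs were in clonotype 2-2. The last steps of Ccl5 and Gzmk in replicate 1 (to 6692 and 546 CPM) rest on clonotype 1-5, without which they end at 4201 and 356 CPM.

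The 11 clonotypes of 5 or more cells did not share a single profile. Clonotype 1-5, of 9 cells, was the richest in Ccl5, with 669 UMIs (25088 CPM) over all 9 cells and 222 in the highest, and held 153 UMIs of Nkg7 and 52 of Gzmk, each again in 9 of 9 cells. It also had 21 UMIs of Tigit in 8 cells and 10 of Pdcd1 in 5, and 0 of Klf2 and Il7r. Clonotype 1-1, of 13 cells, had 257 Ccl5 UMIs in 10 cells but 1 UMI of Gzmk. Its cells held 14 UMIs of Klrg1 in 6 cells, 20 of Klf2 in 7, 40 of Ly6c2 in 8 and 142 of Lgals1 in all 13. Of the 22 Klf2 UMIs in the 8 large clonotypes of replicate 1, 20 were in clonotype 1-1.

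Clonotype 1-2, of 11 cells, held 106 UMIs of Ccl4 in 5 cells and 36 of Gzmk in 9 cells, with 212 of Ccl5 in 9. Clonotypes 1-3 and 1-4, of 10 cells each, held Ccl5 in all 10 (105 and 59 UMIs) and Cxcr6 in 9 and 10, with 2 and 13 UMIs of Gzmk. The 3 large clonotypes of replicate 2 were lower in Ccl5, with 14, 11 and 4 UMIs (1120, 954 and 460 CPM). Clonotype 2-2 had 24 UMIs of Rgs1 in 5 of 7 cells and 15 of Cxcr6 in 5. Clonotype 2-3 had 11 UMIs of Tcf7 in 2 of 5 cells, 8 of Tigit in 3 and 3 of Ccr7 in 3, and 1 of Cxcr6. Clonotype 2-1 held 9 UMIs of Tigit in 6 of 9 cells and 8 of Tcf7 in 4. Cd8a and Itgae (the integrin CD103) each had 0 UMIs in all 11, and Cd4 was found in 10 of the 11.

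**Figure D5:**
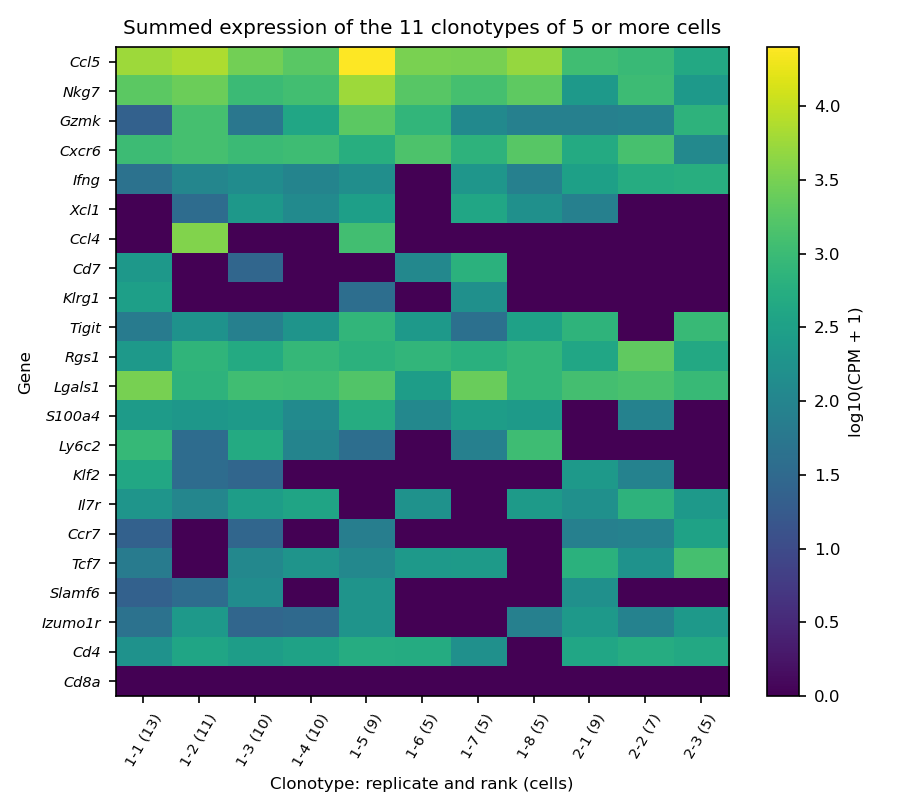
Colour gives log10(CPM + 1) of 22 genes (rows) in the summed cells of the 11 clonotypes of 5 or more cells (columns, named by replicate and rank, cells in brackets). Clonotype 1-5 is the brightest in Ccl5 (25088 CPM), Ccl4 is confined in these 11 clonotypes to 1-2 and 1-5, Klrg1 is highest in 1-1, and Tcf7 is highest in 2-3 (1264 CPM).

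The likeness of cells within a clonotype was set beside that of cells of different expanded clonotypes. Each cell was thinned to 1000 UMIs, and Pearson correlations across genes were averaged over pairs of cells. Pairs of the same clonotype had a mean of 0.353 against 0.350 for pairs of different expanded clonotypes in replicate 1. In replicate 2 the means were 0.330 and 0.323. The SD over pairs of different clonotypes was 0.035 and 0.030, wider than these gaps. With each clonotype weighted equally, the same-clonotype means were 0.357 and 0.335. Pairs of single cells had means of 0.361 and 0.328. The clonotype mean was above the mean between clonotypes in 43 of 66 clonotypes of replicate 1 and in 25 of 39 of replicate 2. Thinning left out 16 and 88 shallower members. These pairs share cells and libraries and were not tested.

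In the clonotypes of exactly 2 cells, marker genes were often found in a single cell of the pair. Ccl5 was found in both cells of 32 of the 48 pairs of replicate 1, in 1 cell of 9 and in neither of 7, and in replicate 2 in both of 11, 1 of 14 and neither of 5 of the 30. Nkg7 was found in both cells of 25 and 13 pairs, and Gzmk in both of 11 pairs and 1 cell of 13 in replicate 1, and in both of 1 and 1 cell of 4 in replicate 2. Klf2 was found in 1 cell of 15 pairs and in both of 0 in replicate 1, and in 1 cell of 13 and both of 4 in replicate 2. At these depths a gene without a UMI may still have been expressed, so a pair with a UMI in 1 cell does not show that its cells differ.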

How the data were processed

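Values in the deposited gene tables are unnormalized UMI counts, made by the authors with Cell Ranger 4.0.0 (replicate 1) and 6.0.0 (replicate 2), per the file headers. The submitters' processing notes name Cell Ranger 6.1.0, Seurat and mm10. The deposited TCR tables list contigs with UMI counts, of which productive ones were used. The deposited hashtag tables hold counts per barcode, and whether these are UMIs or reads is not given in the sources used here. The label of replicate 1 pairs hashtag 7 with a sequence that the table does not list under that name, and the name was followed. The labels' protocols name a 3' kit, while the design text of the series names a 5' kit with TCR libraries for these cells.

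TCR segment and constant genes were left out. Sums over expanded and single cells were tested with edgeR 4.0.16 (TMM, filterByExpr, quasi-likelihood, Benjamini-Hochberg, replicate as block, R 4.3.3). SEs are the log2 fold change divided by the root of F and so rest on the spread pooled over genes. DESeq2 1.42.0 and other settings were alternatives. The replicate number pairs the sums, as both come from the same library and animals. Over 8763 genes, which are not independent replicates, the replicates' departures from the mean of expanded and of single sums correlated with r = 0.668 (Spearman's rho 0.432). On simulated sums with 8464 genes tested, 48.0% of genes raised 2-fold, 100.0% raised 4-fold, 28.9% lowered 2-fold, 65.1% lowered 4-fold and 0.0483% of unchanged genes were called. These sums were drawn with a common dispersion for all genes, taken from the data, and with no cells rich in a gene. The rates hold for that setting and not for genes such as Ccl1, whose UMIs lie in few cells.

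Named genes were a panel of 25 and, among called genes whose CPM differed in the same direction within each replicate and whose mean log2 CPM reached 5, the 20 highest and 12 lowest, with the called genes of each list. Single values of some named genes are not reported here. Members, lists and panel were chosen with earlier results of these data known. The gathering of other-tissue genes came after the values were seen. No doublet caller was run, and doublets were limited by the hashtag margin and the single beta chain. Shares have exact Clopper-Pearson 95% intervals, and intervals of log2 ratios are exact, from the counts of both sums. Bases were marked as outside the segments by matching each CDR3 from both ends to the GENCODE V and J transcripts. D segments were not matched.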

Additional observations from a re-analysis of the deposited data

Results flagged for a closer look

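Among the named and called genes, the counting intervals of the replicates lay on opposite sides of 0 for 3 genes. Other tested genes were not checked, and these intervals take UMIs as independent. The log2 ratio of expanded over single cells was -0.37 in replicate 1 and 0.39 in replicate 2 for Tcf7, a transcription factor of naive and stem-like T cells. It was -2.98 and 1.82 for Iglv1, an immunoglobulin light chain gene, on 5 and 10 UMIs in expanded cells, and 2.35 and -1.92 for Ube2c, a gene of dividing cells, where 27 of 49 expanded UMIs of replicate 1 were in 1 cell. The difference between the replicates was not tested.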

How the results depend on the processing

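Replicate 2 gives 241686 UMIs of expanded cells. In the simulated sums, drawn at the depth of these sums with a common dispersion, 48.0% of genes raised 2-fold and 28.9% of genes lowered 2-fold were called. Other depths were not simulated. In the fit without the replicate block 0 genes were called, and DESeq2 with the block also gave 0, against 133 in the fit reported. The count was 246 at a hashtag margin of 2 (112 higher, 134 lower) and 22 at 20, 10 with cells thinned to 1000 UMIs, 72 with exactly 1 TRA chain, 80 with 1 cell per clonotype, 66 without cells holding Cd8a or Cd8b1, and 7 and 28 within gates on cells without naive genes and on Th1 genes. Leaving out clonotypes of 5 or more cells gave 60. The cause of these changes was not tested. Without a filter on low counts 50 genes were higher and 93 lower, against 77 and 56, and the median of all genes moved by -0.21. Of the 32 genes named by rule, those still called numbered 9 at a margin of 20, 15 with 1 cell per clonotype, 17 without clonotypes of 5 or more, 6 when thinned, 5 and 13 in the gates, 0 without the block and 0 with DESeq2.

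The sign was the same in each of the 20 fitted alternatives that tested the gene for 28 of the 32. The exceptions were Ifitm10 (-0.015 with 1 cell per clonotype), Igkv1-117 (0.50 at a margin of 20 and 0.41 without cells rich in other-tissue genes), Igkc (1.15 with clonotypes by TRB alone) and Jchain (0.25 at a margin of 20, 2.24 by TRB alone, 0.45 and 0.24 in the gates, 0.32 without the other-tissue cells). Leaving out replicate 1 or replicate 2 gives a ratio with no test, and for the genes named by rule its sign was set by the rule. Of the other 28 called genes of the lists and panel, 2 turned sign without replicate 1, Slamf6 (174 against 132 CPM) and Stmn1 (49.7 against 53.9 CPM), and Ccl1 did so without replicate 2 (0 against 2 UMIs). Leaving out clonotypes of 5 or more, the highest cell of each sum, the other-tissue cells or clonotype 1-5 was chosen after seeing the data. The share of expanded cells stayed within the interval of each replicate in every alternative (20.4% to 22.5% and 9.53% to 13.0%).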
